A study of Mus musculus with 2 samples.

Results

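Genes of MHC class I presentation were followed in melanocyte-lineage cells of mouse hair follicles (HFs). The genes were B2m, H2-K1, H2-D1, H2-Q4, H2-Q7, H2-T23, Tap1, Tap2, Tapbp and Psmb8, which are 10 of the 32285 genes counted. They were taken by name, not by a threshold on these values, but with earlier results of these data known. Each was measured by droplet scRNA-seq in 2 libraries of sorted GFP-positive cells, and all 10 reached 1 CPM in at least 1 library. A UMI is a molecular tag that marks 1 captured mRNA molecule, and CPM are the UMIs of a gene for every 1000000 UMIs of a group of cells.

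Both libraries came from Dct-rtTA; tetO-H2B-GFP mice on mixed backgrounds, kept on a doxycycline diet for 4 days before sorting, so that GFP depended on the Dct promoter. The early-anagen library held melanocyte stem cells (McSCs) of skin taken 4 days after depilation at 8 weeks of age. The bulb library held mature melanocytes from microdissected bulbs of fully grown anagen HFs at 5 weeks of age. No depilation is described for the mice of the bulb library. Cells of 4 mice were pooled in each library, mice of either sex were used in the study, and the MHC haplotypes of the mice are not given in the sources used here. The early-anagen library used version 3 of the droplet chemistry and the bulb library version 2, and the skin and the bulbs were dissociated with different enzymes. With 1 library per condition, the stage of the HF, depilation, age, the mice, the dissociation and the chemistry cannot be told apart. No test across samples was possible.

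Melanocytes were cells with at least 1 Dct UMI, fewer than 3 Krt10 and Krt14 UMIs together, less than 5% mitochondrial UMIs, and more than 10000 UMIs in early anagen or 5000 in the bulb. This rule took 2785 of 11010 early-anagen barcodes and 3734 of 4327 bulb barcodes. They held 75718468 and 55883067 UMIs, with a median of 24528 and 14286.5 UMIs per cell. All 8 melanocyte markers examined were above 1 CPM in both groups, and together they reached 24638 CPM in early anagen and 67431 CPM in the bulb. Epidermal markers summed to 32.2 and 36.0 CPM, and immune markers to 17.4 and 1.13 CPM, with Ptprc, Cd3e and Cd207 at 0 UMIs in bulb melanocytes. The libraries shared 1 barcode, and no barcode was shared by the melanocytes of both. Intervals given here are exact 95% intervals for counting error only, and a gene with 0 UMIs was given a floor of 3 counts.

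MHC class I molecules display short peptides from inside the cell to CD8 T cells. Peptides are cut by the proteasome, carried into the endoplasmic reticulum by the TAP transporter and loaded with the help of tapasin onto a heavy chain, which reaches the surface paired with beta-2-microglobulin. Interferons raise the expression of most parts of this route. The bulb of the growing HF is known as an immune-privileged site, where class I expression is low and inhibitory factors are present.

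All but B2m lie in the MHC region of mouse chromosome 17 (build GRCm38), where the 9 genes fall between chr17:33915899 and chr17:36032855, a span of 2.12 Mb. B2m lies at chr2:122147686-122153083. Promoter sequences of 9 of the 10 genes were found in RefSeq (GRCm38.p6), and the 250 bases before each start were searched on both strands for GGGNNTTCCC, an NF-kB-like site, for GAAANNGAAA, an interferon-response element, and for TGACG. These motifs do not overlap in the promoters printed here. GGGNNTTCCC stood in H2-K1, H2-D1, H2-Q4 and H2-Q7, against 1.44% of 27025 promoters. GAAANNGAAA stood in B2m and, on the opposite strand, in H2-T23, against 3.04% of all promoters. Other spellings of such an element were not searched, here or in the stretches below, so lack of a match does not show its absence. TGACG, found in 17.9% of all promoters, stood in B2m, H2-K1, H2-D1, H2-Q4, H2-Q7 and Tap1. None of the 3 letter strings was found in the windows of Tapbp or Psmb8, and Tap2 had no entry.

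The stretches that hold both motifs are shown for a classical heavy chain, for the genes of the Q region and for the light chain. They are written 5′ to 3′ on the strand of the gene, with the matches in capitals.
H2-K1: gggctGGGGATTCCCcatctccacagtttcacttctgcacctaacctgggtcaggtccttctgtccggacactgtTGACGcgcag
H2-Q4: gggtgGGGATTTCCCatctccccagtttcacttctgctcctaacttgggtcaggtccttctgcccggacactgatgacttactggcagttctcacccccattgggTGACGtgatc
H2-Q7: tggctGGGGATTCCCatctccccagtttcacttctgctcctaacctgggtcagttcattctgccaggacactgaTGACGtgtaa
B2m: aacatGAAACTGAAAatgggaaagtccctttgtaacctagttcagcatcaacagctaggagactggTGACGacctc
The H2-K1 stretch is chr17:34000379-34000463 on the minus strand, 5′ of the annotated gene. H2-Q4 is chr17:35379439-35379553 and H2-Q7 chr17:35439017-35439100, both on the plus strand, and the former also overlaps an exon of the antisense gene Gm11131. The B2m stretch is chr2:122147543-122147618 on the plus strand, within the gene Patl2 of the opposite strand. From the first base of the upstream match to the first base of TGACG there were 70 bases in H2-K1, 69 in H2-Q7, 100 in H2-Q4 and 61 in B2m. In H2-D1, which had the same 10 letters as H2-K1, there were 70. In H2-Q4 the letters in the place of the H2-Q7 TGACG differ, and its own TGACG lies further downstream, so its distance is not to the like site. A match of letters describes the sequence and not the binding of a factor.

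Bulb melanocytes held fewer UMIs of class I presentation genes than McSCs of early anagen did. Summed over the 10 genes, the level was 3902 CPM in early anagen and 1636 CPM in the bulb, a log2 ratio of −1.25 (−1.26 to −1.24). Without B2m and H2-D1, the sum was 830 CPM against 90.4 CPM, which is 9.18-fold lower in the bulb. Of the 10 genes, 8 were at least 2-fold lower in the bulb and none was 2-fold higher, beside 33.8% of 11821 genes lower and 15.1% higher. The median log2 ratio was −3.64 for the 10 genes and −0.35 for all genes tested. H2-Q4, H2-Q7 and Psmb8 reached the minimum of 1 CPM only in early anagen, so that a lower value in the bulb was the only outcome open to them. Scaling by TMM factors raised every log2 ratio by 0.31, and a total without mitochondrial, ribosomal protein and pigmentation genes changed every one by −0.16. With TMM factors, 27.7% of all genes were 2-fold lower and 21.6% higher, and the count of 8 lower genes was the same. Without cells that held an immune-marker UMI, the log2 ratio of the sum was −1.26.

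**Figure D1:**
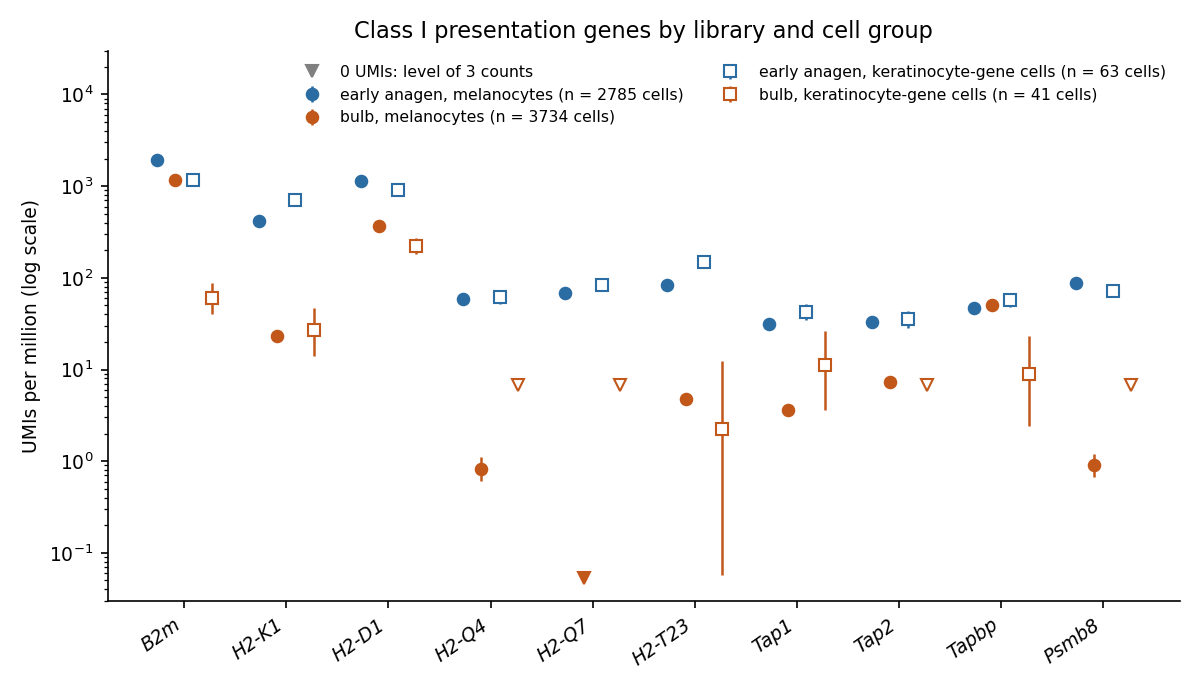
Levels of the 10 class I presentation genes in CPM on a log axis, for melanocytes (filled circles, McSCs in early anagen) and keratinocyte-gene cells (open squares) of each library, with exact 95% counting intervals and triangles at the level of 3 counts where a gene had 0 UMIs. Bulb melanocytes lie below early-anagen McSCs for all genes but Tapbp, which was 47.0 CPM in early anagen and 49.9 CPM in the bulb and whose log2 ratio fell below 0 (−0.07) with the reduced total.

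The light chain and the classical heavy chain H2-D1 were found in most bulb cells, and H2-K1 in few. B2m, the light chain shared by all class I molecules, stood at 1936 CPM (1926 to 1946) in McSCs of early anagen and at 1180 CPM (1171 to 1189) in the bulb. Its log2 ratio was −0.71 (−0.73 to −0.70). With each cell drawn down to 5000 UMIs, a B2m UMI was found in 99.4% of early-anagen and 99.1% of bulb cells, so nearly every cell of both groups held it. H2-D1, a classical heavy chain, was 1136 CPM in early anagen and 366 CPM in the bulb, a log2 ratio of −1.63 (−1.65 to −1.61). At 5000 UMIs it was found in 96.6% and 80.0% of cells. H2-K1, the other classical heavy chain, differed more, with 419 CPM (414 to 424) against 23.01 CPM (21.8 to 24.3), a log2 ratio of −4.19 (−4.27 to −4.11). An H2-K1 UMI was seen in 73.5% of early-anagen and 10.5% of bulb cells at 5000 UMIs. The intervals of both classical heavy chains were apart between the libraries, and H2-K1 was 18.2-fold and H2-D1 3.10-fold lower in the bulb.

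H2-Q4, H2-Q7 and H2-T23, which are nonclassical heavy chains, had between 0 and 266 UMIs in bulb melanocytes. H2-Q4, a Qa-region heavy chain, was 58.6 CPM in early anagen, from 4436 UMIs, and 0.823 CPM in the bulb, from 46 UMIs. This is a log2 ratio of −6.15 (−6.61 to −5.74). H2-Q7, which encodes a Qa-2 molecule, was seen with 5131 UMIs among McSCs, or 67.8 CPM, and with 0 UMIs among bulb melanocytes. With the floor of 3 counts taken over the group, it was 1262-fold lower in the bulb. This is a value at the floor and not a bound, since the exact interval for 0 UMIs reached 0.0660 CPM. No H2-Q7 UMI was found in any of the 4327 bulb barcodes, and 0 of 3734 melanocytes allows up to 0.0987% of cells with a UMI by the exact binomial interval, which does not limit the share of cells that express the gene. H2-T23, which encodes Qa-1, a molecule read by an inhibitory receptor of NK cells, was 84.6 CPM against 4.76 CPM, a log2 ratio of −4.15 (−4.33 to −3.97). Shares at 5000 UMIs were 20.6% and 0.348% for H2-Q4, 20.8% and 0% for H2-Q7, and 26.3% and 2.46% for H2-T23.

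These heavy chains are close copies, and reads from a shared stretch can be lost or moved between them. In windows of 91 bases from the last 500 bases of the annotated coding transcripts, 4.55% of H2-Q7 windows also stood in another gene (H2-Q5). The share was 9.27% for H2-Q4, in genes outside class I, 12.9% for H2-T23, in the pseudogene H2-T-ps and genes outside class I, and 0.0756% for H2-K1. It was 0 for H2-D1, B2m, Tap1, Tap2, Tapbp and Psmb8, and 26.6% for H2-Q6, a neighbour that shares windows with H2-Q7. For H2-Q6, 576 UMIs were found among McSCs and 0 among bulb melanocytes. These windows follow the reference genome, and alleles of other haplotypes can differ from it, so a low count of a heavy chain cannot be told apart from poor alignment of another allele.

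Peptide transport and loading differed from gene to gene. Tap1 and Tap2 encode the chains of the peptide transporter. Tap1 was 31.4 CPM in early anagen and 3.60 CPM in the bulb, a log2 ratio of −3.13 (−3.34 to −2.92), and Tap2 was 33.4 CPM and 7.34 CPM, a log2 ratio of −2.19 (−2.34 to −2.03). Tapbp encodes tapasin, which holds empty class I molecules at the transporter, and did not follow them. Its level was 47.0 CPM (45.4 to 48.5) against 49.9 CPM (48.1 to 51.8), and a UMI was present in 20.1% and 20.9% of cells at 5000 UMIs. The log2 ratio of Tapbp was 0.09 (0.02 to 0.16) and ranged from −0.07 to 0.69 over 12 alternatives, below 0 in 3 of them. The other 9 genes were lower in the bulb under every alternative that gave a value.

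Psmb8, the immunoproteasome subunit that replaces Psmb5 under interferon, was 88.3 CPM in early anagen, from 6686 UMIs, and 0.913 CPM in the bulb, from 51 UMIs. The log2 ratio was −6.60 (−7.02 to −6.20), a 96.8-fold difference. Its constitutive counterpart Psmb5 was 324 CPM and 363 CPM. Psmb6 was 280 CPM and 448 CPM, and Psmb7 192 CPM and 207 CPM, with log2 ratios of 0.17, 0.68 and 0.11. All 3 were thus higher in the bulb by CPM, except that the shift of −0.16 with the reduced total is larger than the ratio of Psmb7.

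Each cell was also examined at equal depth. At 5000 UMIs the median cell held 16 UMIs of the 10 genes in early anagen and 8 in the bulb. The middle 90% of cells ran from 6 to 55.8 UMIs in early anagen and from 3 to 15 in the bulb, so the ranges overlapped, and early anagen had the longer upper tail. At least 4 of the 10 genes were detected in 58.6% of early-anagen and 4.20% of bulb cells. None of the 8 genes other than B2m and H2-D1 was detected in 11.5% and 65.5% of cells. The variance of H2-K1 UMIs over cells was 3.91 times the mean in early anagen and 1.15 times in the bulb. For Psmb8 it was 3.15 and 1.14 times, and for Tapbp 1.45 and 1.10 times. The means in early anagen and the bulb were 2.24 and 0.119 UMIs per cell for H2-K1 and 0.464 and 0.00375 for Psmb8. The variance over the mean nears 1 where the mean is low. For H2-K1 and Psmb8 it therefore cannot compare the spread between the libraries. In early anagen, the tenth of cells with the most UMIs of a gene held 26.0% of B2m UMIs, 41.1% of H2-K1 UMIs, 67.4% of Psmb8 UMIs and 68.1% of H2-T23 UMIs. Such a share is also high where UMIs are few. For bulb Psmb8 it was 100%, from 14 UMIs, at a variance of 1.14 times the mean. Neither the shares nor the variance over the mean thus rank the genes by unevenness, since both change with the level. B2m, with the lowest share, had a variance of 5.34 times a mean of 10.5 UMIs in early anagen. For H2-T23 the variance was 3.40 times a mean of 0.513 UMIs. With variances above the mean, the UMIs of both genes were spread unevenly over early-anagen McSCs.

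**Figure D2:**
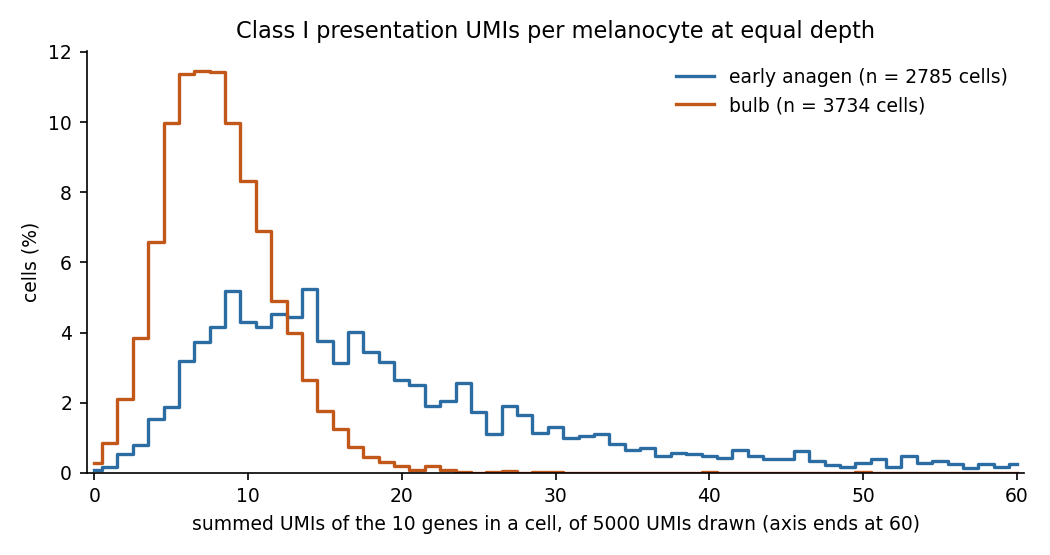
Share of melanocytes (percent) by the summed UMIs of the 10 class I presentation genes in a cell, each cell drawn down to 5000 UMIs, in 2785 early-anagen and 3734 bulb cells. The median was 16 UMIs in early anagen and 8 in the bulb, and the early-anagen curve extends beyond the end of the axis.

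Epidermal cells of the same libraries were examined as a check on the mice and the chemistry. By the limit of 2000 CPM of Krt5, Krt10 and Krt14 there were 113 such cells in early anagen and only 1 in the bulb, with 6765 UMIs and 1 UMI of the 10 genes (H2-D1). At this depth a comparison of epidermal cells between the libraries could not be made. A second group was therefore chosen after the data had been seen, with at least 1000 CPM of Dsp, Perp and Sfn, which encode desmosomal and epithelial proteins, and less than 1000 CPM of Dct. It held 63 early-anagen cells (2358107 UMIs) and 41 bulb cells (445010 UMIs), called keratinocyte-gene cells here. These were not the same kind of cell in both libraries, since Krt14 was 8980 CPM in early anagen and 184 CPM in the bulb, where the hair keratin Krt35 was 1112 CPM. In the bulb, 18 of the 41 also met the melanocyte rule, with Dct at 171 CPM and Krt35 at 0 UMIs. All Krt35 UMIs lay in the other 23 cells, at 2013 CPM, so the bulb group was itself mixed.

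In keratinocyte-gene cells all 10 genes were at least 2-fold lower in the bulb library, beside 26.1% of 8396 genes of at least 10 CPM in either library, whose median log2 ratio was 0.22. The sum was 3277 CPM in early anagen and 333 CPM in the bulb, a log2 ratio of −3.30 (−3.55 to −3.07), and it was −3.21 without cells that met the melanocyte rule. B2m was 1164 CPM against 60.7 CPM (40.0 to 88.3), H2-K1 699 CPM against 27.0 CPM (13.9 to 47.1), and H2-D1 912 CPM against 222 CPM (181 to 271). H2-Q4, H2-Q7, Tap2 and Psmb8 had 0 UMIs in the bulb cells and between 83 and 199 UMIs in early anagen. Tapbp was 57.7 CPM against 8.99 CPM, from 136 and 4 UMIs. H2-Q4, H2-Q7, H2-T23, Tap2, Tapbp and Psmb8 reached the minimum of 10 CPM only in early anagen. A lower value in the bulb was thus the only direction open to them. B2m, H2-K1, H2-D1 and Tap1 reached it in both libraries. For B2m, H2-K1 and H2-D1, the lower levels in the bulb library were not limited to melanocytes. Tap1 cannot show this. Of its bulb UMIs, 4 came from the 18 cells that met the melanocyte rule and 1 from the other 23 cells (4.07 CPM).

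Within the bulb library, melanocytes held more B2m than keratinocyte-gene cells, with 1180 CPM against 60.7 CPM, which is 19.4-fold. H2-D1 was 366 CPM against 222 CPM, a log2 ratio of 0.72 (0.44 to 1.02), and Tapbp 49.9 CPM against 8.99 CPM, a log2 ratio of 2.47 (1.12 to 4.35). H2-K1 did not differ beyond counting error, with 23.01 CPM in melanocytes against 27.0 CPM and a log2 ratio of −0.23 (−1.04 to 0.73). H2-T23 and Tap1 rested on 1 and 5 UMIs in the keratinocyte-gene cells. No cell type in these libraries is known to lack class I genes, so RNA free in the suspension could not be measured apart from expression. The H2-K1, H2-T23, Tap1, Tap2 and H2-Q4 levels of bulb melanocytes cannot be told apart from such a background. In the 440 bulb barcodes under the UMI minimum, B2m was 668 CPM, H2-K1 41.2 CPM (28.2 to 58.1) and H2-T23 14.2 CPM (7.07 to 25.3). H2-K1 and H2-T23 were thus higher there than in bulb melanocytes and B2m was lower. Tap1, Tap2 and H2-Q4 were also higher there, at 9.01, 10.3 and 3.86 CPM, but from 7, 8 and 3 UMIs. Tapbp was lower, at 45.0 CPM, and Psmb8 had 0 UMIs. In the early-anagen library, McSCs held 1936 CPM of B2m against 1198 CPM in the 113 epidermal cells, and 3902 CPM against 2988 CPM over the 10 genes, a log2 ratio of 0.38 (0.36 to 0.41). H2-T23 was 84.6 CPM in McSCs and 125 CPM in epidermal cells, and H2-K1 419 CPM and 525 CPM. Against the 63 keratinocyte-gene cells of that library, the log2 ratio of McSCs was 0.73 for B2m and −0.74 for H2-K1. The epidermal cells also held 4352 CPM of melanocyte markers, a median of 657 CPM per cell, and no doublets were called here, although the sort had discriminated against them. In 7241 early-anagen barcodes under the UMI minimum, B2m was 2085 CPM, H2-K1 509 CPM and H2-Q7 80.5 CPM, close to the McSCs or higher. With no UMI minimum the melanocyte rule took 6051 early-anagen cells in place of 2785. Many of these barcodes thus met the rest of the rule, and they do not measure free RNA alone.

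The other genes of the class I route were read from lists that hold none of the 10. Of 8 tested class I and class I-like heavy chains, 6 were 2-fold lower in the bulb and none higher, beside 33.8% and 15.1% of all genes. Of these 6, 5 reached 1 CPM only in early anagen, which left them no other direction. The remaining gene was H2-T22, also a nonclassical heavy chain, at 70.3 CPM in early anagen and 28.8 CPM in the bulb, from 1607 UMIs. With the TMM shift of 0.31, H2-T22 would be less than 2-fold lower. Fcgrt, the neonatal Fc receptor chain, was 21.8 CPM and 0.966 CPM, while Hfe, a regulator of iron uptake, was 14.3 CPM and 8.70 CPM. Of 9 genes of peptide processing and loading, 6 were lower and none higher, beside the same shares of all genes. Their median log2 ratio was −1.78, against −0.35 for all genes tested. The immunoproteasome subunits Psmb9 and Psmb10 were 58.4 and 43.3 CPM in early anagen and 1.79 and 12.6 CPM in the bulb. Psme1, a proteasome activator chain, was 140 CPM and 39.2 CPM, whereas its partner Psme2 was 120 CPM and 131 CPM, a log2 ratio of 0.13, which the shift of −0.16 would take below 0. The general chaperones Calr and Pdia3 were between the limits, with log2 ratios of −0.52 and −0.83, and Canx was at −1.06. With the TMM shift of 0.31, Canx would also be between the limits.

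**Figure D3:**
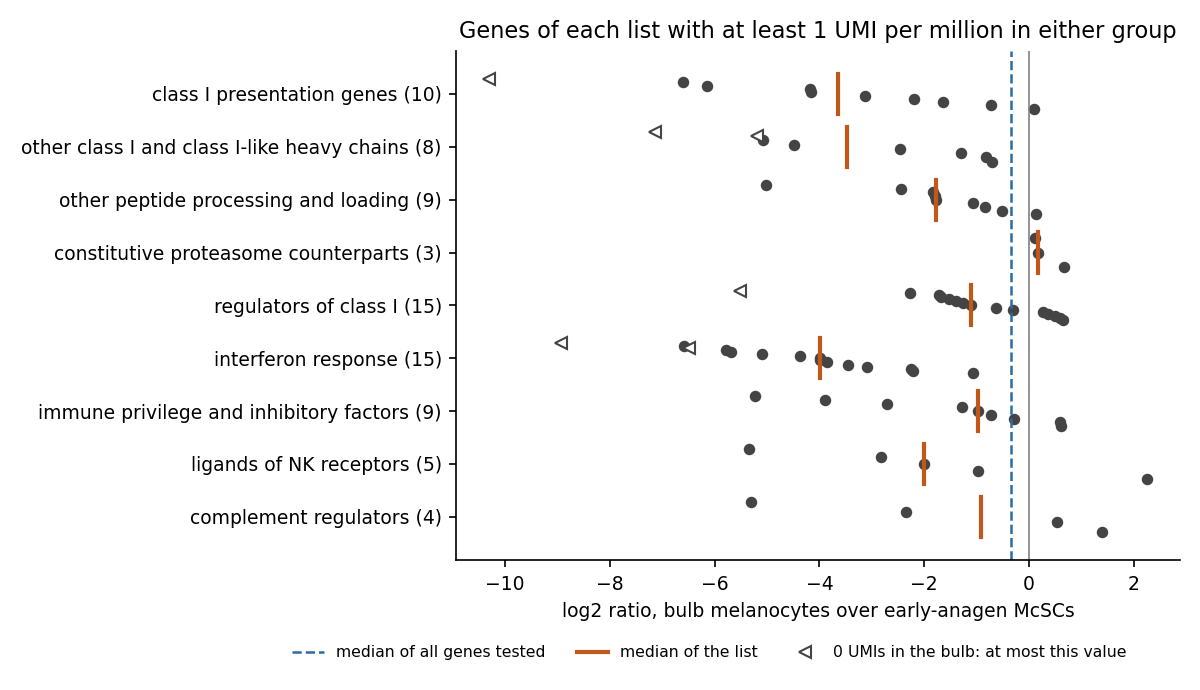
Log2 ratio (bulb over early anagen, melanocytes) for each gene of each list with at least 1 CPM in either group (points), with the median of the list (orange bar). The dashed line at −0.35 is the median of all 11821 genes tested. Open triangles are genes with 0 UMIs in the bulb, set at the floor of 3 counts. The class I presentation genes have a median of −3.64, and 3 of these 10 genes and 8 of the 15 interferon-response genes reached 1 CPM only in early anagen.

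Regulators of class I genes were 2-fold lower in 8 of 15 and higher in none, beside 33.8% and 15.1% of all genes, with a median of −1.11. Nlrc5, the transactivator of class I genes, named here although its level was low, had 187 UMIs in early anagen and 0 in the bulb, which is 2.47 CPM against a floor of 0.0537 CPM, and it alone of the 15 reached 1 CPM only in early anagen. Irf1, an interferon-induced transcription factor, was 20.3 CPM and 6.32 CPM. Jak1 and Jak2, kinases of the interferon receptors, had log2 ratios of −1.26 and −1.71. The TMM shift of 0.31 would leave Jak1 less than 2-fold lower. The receptor chains themselves were between the limits, with Ifngr1 at 26.5 and 31.9 CPM, Ifngr2 at 34.5 and 51.7 CPM, Ifnar1 at 16.0 and 25.02 CPM, and Ifnar2, which was lower in the bulb, at 91.9 and 59.5 CPM. The 15 tested genes of the interferon-response list were all 2-fold lower in the bulb, which was the only direction open to the 8 that reached 1 CPM only in early anagen, Cxcl10 and Iigp1 among them. The 7 that reached it in both libraries were also lower. Bst2, an antiviral membrane protein, was 420 CPM against 20.3 CPM, Cxcl10, a chemokine that draws T cells, 63.7 CPM against 0.662 CPM, and Gbp2, a guanylate-binding protein, 56.5 CPM against 1.09 CPM. Iigp1, an immunity-related GTPase, had 1996 UMIs in early anagen and 0 in the bulb.

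Of 9 tested factors counted as inhibitory in an immune-privileged site, 4 were 2-fold lower in the bulb and none 2-fold higher. This is near the 33.8% of all genes that were lower, and 2 of the 4, Cd274 among them, reached 1 CPM only in early anagen. Cd274, which encodes PD-L1, was 10.1 CPM in early anagen and 0.268 CPM in the bulb, a log2 ratio of −5.23. Lgals9 and Lgals1, which encode galectins, had log2 ratios of −2.72 and −1.29. The TMM shift of 0.31 would leave Lgals1 less than 2-fold lower. Tgfb1 was 19.2 CPM and 28.8 CPM, and Mif, a cytokine also known to restrain NK cells, 856 CPM and 1309 CPM, with log2 ratios of 0.59 and 0.61. Cd200, a ligand that restrains myeloid cells, was 52.6 CPM and 43.2 CPM, and Cd47, the signal against phagocytosis, 185 CPM and 111 CPM. Ligands of NK receptors were lower in 3 of 5 tested and higher in 1, beside 33.8% and 15.1% of all genes. The higher gene was Raet1d, named after its value was seen, at 0.489 and 2.33 CPM. Only 2 of these 5 reached 1 CPM in both libraries. Of 4 complement regulators tested, 2 were lower and 1 was higher, beside the same shares of all genes. Both lower ones reached 1 CPM only in early anagen. The higher was the membrane protein Cd59a, at 64.6 CPM and 169 CPM, a log2 ratio of 1.39 (1.34 to 1.44). Its neighbour in function Cr1l was 50.6 CPM and 73.0 CPM.

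The lists above hold interferon-response genes that were lower in the bulb, so the 10 genes were also read by the UMIs of that response. Cells were put into bands by the UMIs of a 16-gene interferon-response list at 5000 UMIs, which are ranges of a score and not cell types. No such UMI was found in 502 early-anagen cells (18.0%) and 3250 bulb cells (87.0%), and 5 or more in 662 (23.8%) and 18 (0.482%). In early anagen the summed level was 2906 CPM in cells with 0 interferon-response UMIs, 3177 CPM with 1, 3938 CPM with 2 to 4, and 6602 CPM with 5 or more. The log2 ratio of the highest over the lowest band was 1.18 (1.15 to 1.22). It was 1.03 for B2m, 1.02 for H2-D1, 1.33 for H2-K1, 2.85 for H2-T23, 2.71 for Psmb8, 2.42 for Tap1, 1.93 for Tap2, 1.75 for H2-Q4 and 1.63 for H2-Q7. Tapbp, at 1.52, was 36.7 CPM in the lowest and 105 CPM in the highest band. In the bulb the sum was 1615 CPM with no interferon-response UMI and 3111 CPM (2757 to 3498) in the 18 cells with 5 or more.

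Among cells with no interferon-response UMI, the sum of the 10 genes was still lower in the bulb. It was 1615 CPM against 2906 CPM, a log2 ratio of −0.85 (−0.88 to −0.81) at 5000 UMIs. B2m was 1155 CPM in the bulb and 1507 CPM in early anagen, H2-D1 372 and 883 CPM, and H2-K1 23.6 and 298 CPM. H2-T23 was 4.86 and 36.3 CPM, and Psmb8 0.369 and 35.5 CPM, from 6 and 89 UMIs. H2-Q7 had 0 UMIs in the bulb and 109 in early anagen. Tapbp was 47.0 CPM in the bulb and 36.7 CPM in early anagen, a log2 ratio of 0.36 (0.05 to 0.69). Within a band the depth of early-anagen cells and the list's own sampling still differ from those of the bulb, since a cell with 0 UMIs at this depth may hold such transcripts. The bands thus do not hold the response equal between the libraries. In the 18 bulb cells of the highest band H2-K1 was 44.4 CPM, from 4 UMIs, against 753 CPM in early anagen. With all UMIs of these 18 cells it was 80.6 CPM, from 22 UMIs, a log2 ratio over the lowest band of 1.85 (1.17 to 2.46) in place of 0.92 (−0.97 to 2.28).

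**Figure D4:**
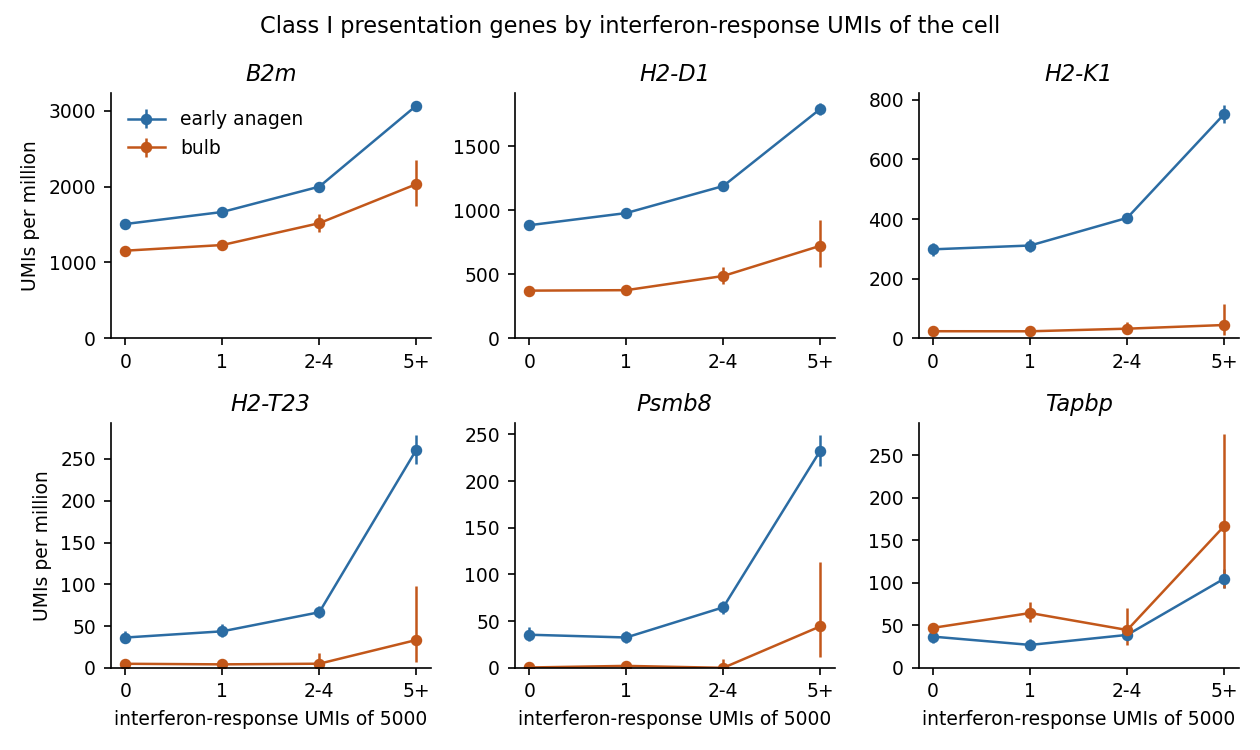
Levels of 6 class I presentation genes in CPM (each panel has its own axis from 0) by the interferon-response UMIs of the cell at 5000 UMIs, with exact 95% counting intervals, in early-anagen McSCs (502, 572, 1049 and 662 cells) and bulb melanocytes (3250, 385, 81 and 18 cells). H2-K1 in early anagen was 298 CPM in the lowest and 753 CPM in the highest band, while in the bulb it was 23.6 CPM and 44.4 CPM, the last from 4 UMIs.

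Across the 2785 early-anagen McSCs, the genes whose log2 UMIs at 5000 UMIs were most like those of the summed class I genes were Ifitm3 (Pearson r = 0.41), Bst2 (0.36), Gbp2 (0.35), Psmb9 (0.32) and H2-T22 (0.29), among 7305 genes found in at least 5% of cells. Ifitm3 is an interferon-induced membrane protein. In bulb melanocytes no gene reached an r of 0.20. Each of the 10 genes had an r between 0.24 (H2-Q7) and 0.41 (H2-T23 and Psmb8) with the interferon-response list in early anagen. For the 9 genes with UMIs in the bulb these values lay between −0.0046 and 0.15, and counts of most genes there were sparse. All cells of a library share its free RNA, and B2m in early anagen also had an r of −0.26 with the log2 depth of the cell.

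Early-anagen McSCs were last split by genes of differentiation and of the cell cycle, with each cell drawn down to 10000 UMIs. Oca2, which encodes a melanosome membrane protein needed for pigment, had a UMI in 300 cells and none in 2485. All 10 class I genes were lower in cells with an Oca2 UMI, with log2 ratios from −1.15 (Psmb8) to −0.13 (B2m) and a median of −0.72. The sum was 3512 CPM with and 4314 CPM without Oca2, and most of it was B2m and H2-D1 (1942 and 1014 CPM with Oca2). Without B2m and H2-D1 it was 557 CPM with and 935 CPM without Oca2, a log2 ratio of −0.75 (−0.82 to −0.68). The interferon-response list was also lower, at 533 CPM against 837 CPM. Among cells with fewer than 2 interferon-response UMIs the log2 ratio of the sum of all 10 genes was −0.04 (−0.08 to 0.01), compared with −0.30 over all cells. This sum follows mainly B2m and H2-D1, so it does not show how the other genes differed in those cells.

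Cells with an Mki67 or Top2a UMI, taken as cycling, numbered 992, and 1793 had none. The sum stood at 3782 CPM when cycling and at 4474 CPM when not, a log2 ratio of −0.24 (−0.26 to −0.22). H2-T23 was 65.3 CPM against 123 CPM, whereas H2-Q4 was 74.9 CPM against 51.8 CPM, a log2 ratio of 0.53 (0.39 to 0.67). H2-Q7 was 80.7 CPM against 66.9 CPM, and Psmb8 did not differ beyond counting error, at 91.5 CPM and 87.6 CPM. The 10 genes were thus lower in cycling cells for 6 and not lower for 4.

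**Figure D5:**
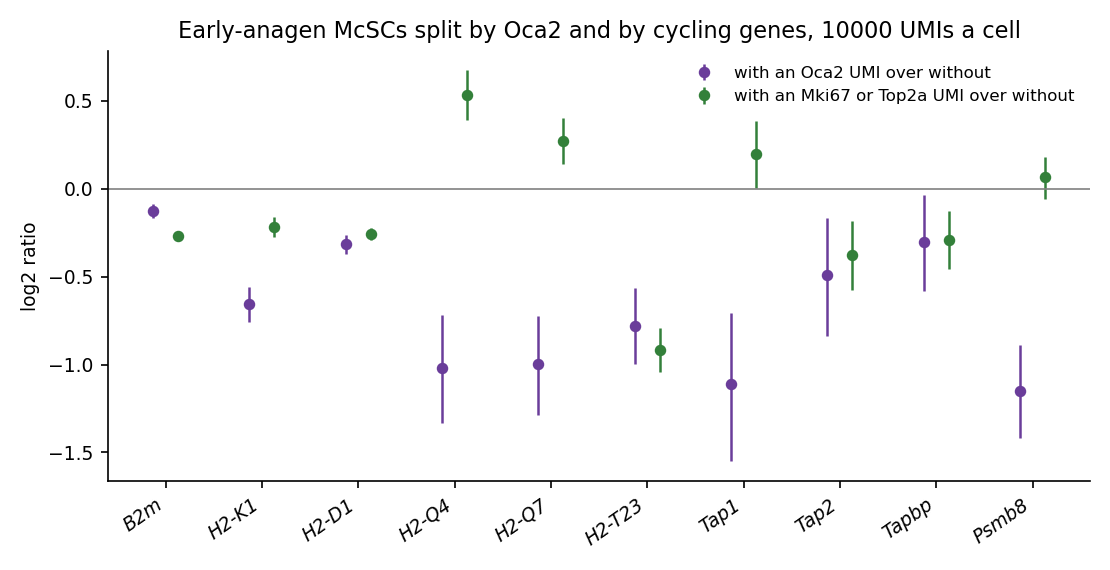
Log2 ratio of each class I presentation gene in early-anagen McSCs with over without an Oca2 UMI (300 and 2485 cells) and with over without an Mki67 or Top2a UMI (992 and 1793 cells), each cell drawn down to 10000 UMIs, with exact 95% counting intervals. All 10 ratios of the Oca2 split are below 0, and H2-Q4 is the highest of the cycling split at 0.53.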

How the data were processed

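GFP-positive cells were sorted. The files deposited by the authors hold, for each library, unscaled UMI counts by gene and barcode. Per the submitters' processing notes, Cell Ranger 6.0.1 had been run with an mm10 reference. The telogen library was not analysed here.

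For each group of cells, the counts of a gene were added up and divided by the group's total (CPM). Intervals at 95% were conditional binomial for ratios and Clopper-Pearson for shares (scipy 1.17.1) and cover counting error only. Those for ratios were run on simulated Poisson counts, the model they assume. That run checks the code and does not cover spread between cells. With 1 library per group, no p-value was computed and cells were not replicates. A call was a 2-fold ratio, among genes with 1 CPM or more in a group (10 CPM for keratinocyte-gene cells). For shares, bands and splits, cells were thinned at random to 5000 or 10000 UMIs. TMM factors came from edgeR 4.0.16. No doublets were called.

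The 10 genes and the lists were chosen with earlier results of these data known. Genes named are the 10, list genes of at least 10 CPM in melanocytes or epidermal cells of a library, and the 5 most correlated genes where r reached 0.2. Nlrc5 and Raet1d, below 10 CPM there, and the genes that mark or define groups of cells fall outside this rule. A list gene that meets it is not reported here. Gene positions and transcripts were from GENCODE (GRCm38) and promoters from RefSeq. Alternatives changed the limits on cells, the scaling or the depth, or left out cells with immune-marker or interferon-response UMIs, 1 choice at a time.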

Additional observations from a re-analysis of the deposited data

Results flagged for a closer look

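Tapbp, which encodes tapasin, differed little between the libraries in melanocytes and was lower in the bulb library in keratinocyte-gene cells. In melanocytes its log2 ratio (bulb over early anagen) was 0.089 (0.017 to 0.16), from 2791 and 3556 UMIs, and it fell below 0 in 3 of 12 alternatives. In keratinocyte-gene cells it was −2.68 (−4.58 to −1.29), from 4 and 136 UMIs. The difference between these ratios was not tested, since each rests on 1 library per stage, and the bulb value of the latter rests on 4 UMIs.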

How the results depend on the processing

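The log2 ratio of the summed genes in melanocytes was −1.25. It was −1.31 with no UMI minimum, −1.29 without the 5% of cells with the most UMIs, −1.36 with each cell thinned to 5000 UMIs (also −1.36 as the mean of the CPM of each cell), −1.41 with the reduced total and −0.94 with TMM scaling. It was −0.81 without cells with 2 or more interferon-response UMIs (1074 and 3635 cells left) and −0.75 in cells with none, an alternative added after the data were seen. The count of 8 lower genes was the same in every alternative run. Tapbp was reversed with the reduced total (−0.071), at 5000 UMIs (−0.066) and as the mean of each cell's CPM (−0.015).

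McSCs over epidermal cells in early anagen, 0.38, was 0.43 with no UMI minimum, 0.41 with no mitochondrial limit, 0.21 with an epidermal limit of 10000 CPM, 0.24 with Dct under 100 CPM, and 0.25 against keratinocyte-gene cells (0.24 outside the melanocyte rule, both added later). It was −0.073 without McSCs with 2 or more interferon-response UMIs. The Oca2 split of the summed genes, −0.30, was −0.46 at 2 Oca2 UMIs and −0.035 without those cells. The cycling split of the sum, −0.24, was −0.35 and −0.26 by the same changes. The causes were not tested. The epidermal limit of 10000 CPM and that on Dct left no epidermal cell in the bulb and gave no value there. No paired analysis was possible because each group had 1 library. Depth limits the 41 bulb keratinocyte-gene cells, where 3 counts are 6.74 CPM.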
